A study of Arabidopsis thaliana with 2 samples.

Results

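SECA2 (AT1G21650) and cpHsc70-1 (AT4G24280) are nuclear genes for chloroplast protein transport and protein folding, and each lay under 1 peak of a chromatin immunoprecipitation map of the transcription factor ATAF1 in Arabidopsis thaliana. They were chosen by the list's column of overlapped annotations, which names them, so the presence of a peak on each gene is not a finding. They account for 2 of the 439 peaks in the deposited list and for 2 of the 291 peaks that overlapped a protein-coding gene. The antibody, raised against the HA tag, was used on rosette chromatin of plants that express 35S:ATAF1-HA in the Col-0 ecotype and of wild-type Col-0 plants, which carry no tag. Both were grown on soil for 5 weeks with 8 h of light per day at 21 °C, and 10 ng of precipitated DNA went into 1 library per genotype. There was no replicate. The 35S promoter drives strong expression in most plant cells, and whole rosettes hold many cell types, so a position in the list is not tied to native ATAF1 levels or to a cell type. Each peak has 1 read total, not attributed to a library, and how deeply each library was sequenced is unknown. No difference between the tagged line and wild type could therefore be computed for either gene.

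Most chloroplast proteins are encoded in the nucleus, made in the cytosol and brought in through the TOC and TIC translocons of the outer and inner envelope. Stromal Hsp70 and Hsp93 chaperones work at the inner face of this import path, and Hsp70 also folds arriving proteins and protects them under heat stress. Once inside, proteins for the thylakoids are sent on by Sec, signal recognition particle and Tat pathways related to those of bacteria. Plants have a pair of chloroplast Sec systems, each driven by a SecA ATPase. SECA1 works with SCY1 at the thylakoid membrane, while SECA2 works with SCY2 at the envelope. ATAF1 is a NAC transcription factor of stress and senescence responses, processes in which leaf chloroplasts are remodelled or dismantled.

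SECA2, the motor ATPase of the envelope Sec system, had the peak with the most reads on chromosome 1. It lay at positions 7599763 to 7599764 of the TAIR 9 build, with a deposited length of 1 bp, and held 883 reads, of which 273 were forward and 610 reverse. The next peak on that chromosome, on the stress NAC gene ANAC019, had 612 reads. Across the genome the SECA2 peak ranked 11 of 439 by reads and 2 of the 291 peaks on protein-coding genes, where AT5G10340 came first with 2630 reads. It held 4.11 times the median of all peaks, 215 reads. Its deposited false discovery rate (FDR) was 5.48e-28%, position 9 when the list is ordered by FDR, and its deposited p-value was 1.32e-12.

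cpHsc70-1, which encodes a stromal Hsp70 chaperone of the import motor, had a peak near the bottom of the list by reads. It lay on chromosome 4 at positions 12593491 to 12593562, with a length of 71 bp, and held 121 reads, 71 forward and 50 reverse. By reads it ranked 390 of 439 in all and 59 of the 63 peaks on chromosome 4, with 42 peaks of the whole list below it. Its read total was 0.563 times the median of all peaks. Its FDR was 2.40%, against a median of 0.948% over the list, and its p-value was exactly 0. When the list is ordered by FDR it stood at position 348, in a tie of 15 peaks.

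**Figure D1:**
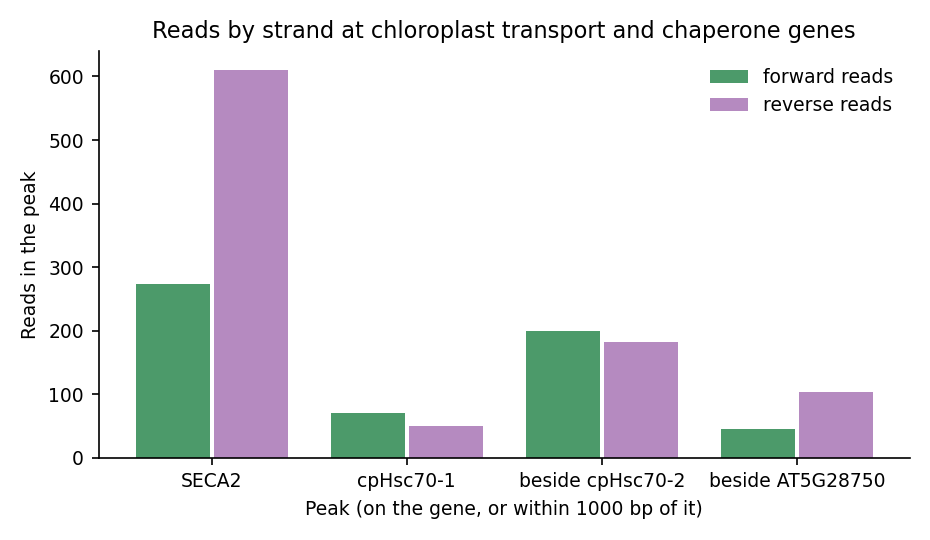
Forward and reverse reads (y axis, reads per peak) in the peaks on SECA2 and cpHsc70-1 and in the peaks within 1000 bp of cpHsc70-2 and of AT5G28750. Reverse reads stand above forward reads on SECA2 (610 and 273), whereas forward reads are the higher on cpHsc70-1 (71 and 50); each bar is 1 value of the list, without replicates.

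The peaks thus stood at opposite ends of the list in reads. SECA2 held 7.30 times the reads of cpHsc70-1 (exact conditional 95% interval 6.03 to 8.90). The gap differed by strand, with a ratio of 12.2 for reverse reads (9.14 to 16.6) and of 3.85 for forward reads (2.95 to 5.07). These intervals, and those below, cover counting error only and treat each read as independent. Reads without molecular identifiers are not independent molecules, so the intervals can be too narrow and the p-value of the strand test below too small. The order by p-value ran the other way. The cpHsc70-1 value of 0 was shared by 373 of the 439 peaks, while SECA2 was among the 42 peaks with a p-value above 0 and up to 0.05. The sources used here do not say what this p-value tests.

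The strand split differed between the peaks. Forward reads made up 30.9% of the SECA2 peak (Wilson 95% interval 27.96 to 34.04) and 58.7% of the cpHsc70-1 peak (49.8 to 67.1). The cpHsc70-1 interval includes an even split, so only SECA2 had a strand excess beyond its interval. The difference, SECA2 minus cpHsc70-1, was -27.8 percentage points (Newcombe 95% interval -36.6 to -18.3; Fisher's exact test on the reads, two-sided p = 5.39e-09). The test compares the reads of these peaks and not conditions or plants. Over the whole list the forward share had a median of 48.7% and a range of 25.5 to 74.7%. SECA2 lay near its lower edge, with 27 peaks below it, whereas cpHsc70-1 had 82 peaks above it. The deposited strand imbalance, the absolute difference of the strands over their sum, was 0.382 on SECA2, rank 46 of 439, and 0.174 on cpHsc70-1, rank 206, close to the median of 0.165. The highest imbalance in the list was 0.495. Whether more uneven regions were left out of the list is not stated, so the range and these ranks hold within the list only.

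**Figure D2:**
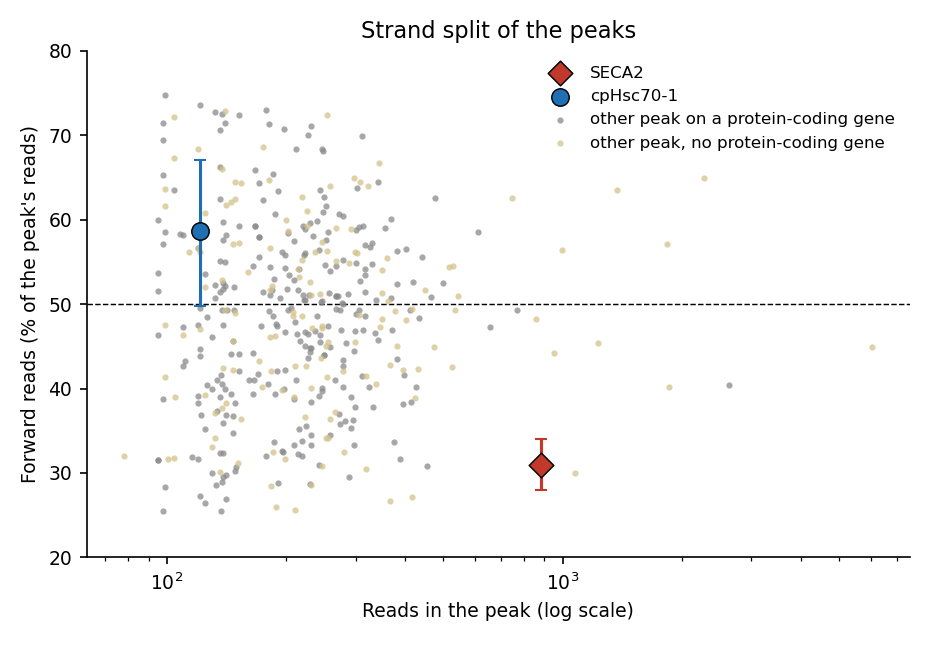
Forward reads as a percent of the reads in the peak (y axis) against reads per peak (x axis, log scale) for all 439 peaks, with Wilson 95% intervals on SECA2 and cpHsc70-1 and a dashed line at an even split. SECA2 sits at 30.9% with 883 reads and cpHsc70-1 at 58.7% with 121 reads, inside a cloud of peaks that spreads from 25.5 to 74.7%.

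Peaks with like read totals showed how far each gene's peak was ordinary for its depth. The cpHsc70-1 total of 121 reads was shared by 7 other peaks, and all 8 had the same FDR of 2.40%. They lay on RNL (AT1G07910), a tRNA ligase gene, TRFL5 (AT1G15720), AT1G78400, the abscission receptor gene HAE (AT4G28490), the ubiquitin protease gene UBP27 (AT4G39370), the transposable element gene AT2G19840 and a site on chromosome 3 with no named gene. The lengths of these 7 ran from 18 to 80 bp and their forward shares from 27.3% on AT1G78400 to 73.6% on UBP27, and the cpHsc70-1 values fell inside both ranges. The same FDR was given to 15 peaks in all, with up to 230 reads.

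For SECA2 no other peak had the same total. The next peaks above it, with 951 and 994 reads, and the next below, with 856, named no gene, and all 3 had p-values that round to 1. The second peak below lay on the SUMO ligase gene SIZ1 (AT5G60410), with 769 reads over 472 bp, an FDR of 0.0698% and a p-value as low as 1.55e-15. Forward reads made up 49.3% of that peak and from 48.2 to 56.4% in the neighbours of 856 and 994 reads, while the peak of 951 reads had 44.2%. SECA2, at 30.9%, had the lowest forward share of these 5, but not of all deep peaks. It also differed in annotation from most of the deepest peaks. Of the 11 peaks with at least 883 reads, 8 named no gene, 1 lay on another annotated gene and 2 lay on protein-coding genes, SECA2 and AT5G10340. The other 10 ranged from 5 to 403 bp in length and from 29.9 to 64.9% in forward share, so the SECA2 share lay inside their range and its length below theirs.

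**Figure D3:**
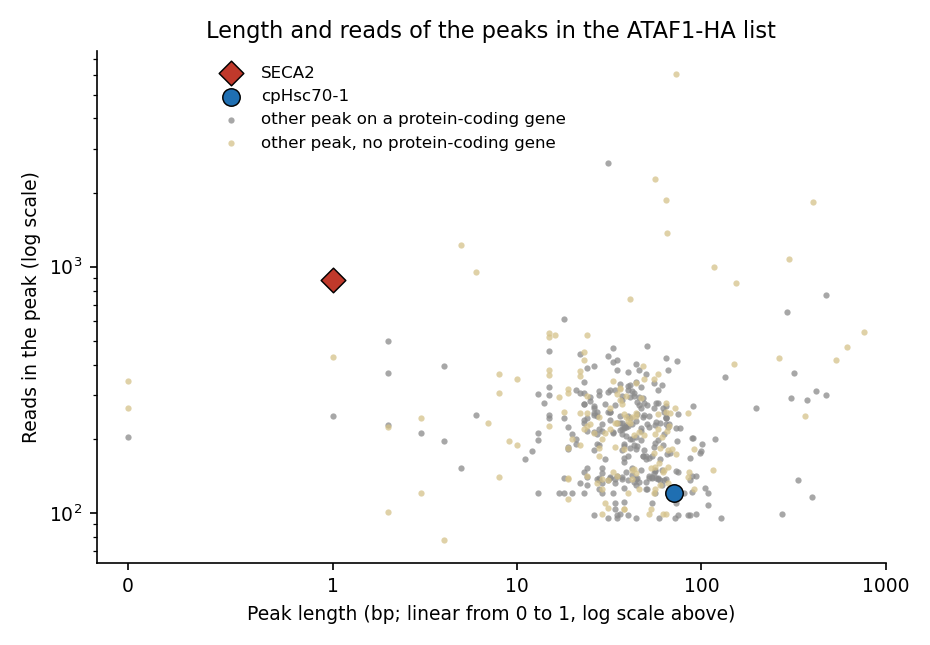
Reads per peak (y axis, log scale) against peak length in bp (x axis, linear from 0 to 1 and logarithmic above) for all 439 peaks. SECA2 combines 883 reads with a length of 1 bp, away from the main cloud, while cpHsc70-1, at 121 reads and 71 bp, lies on its lower right side.

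In length the SECA2 peak was extreme and the cpHsc70-1 peak was not. Deposited length equalled end minus start in all 439 peaks, with a median of 40 bp. SECA2 shared its length of 1 bp with 2 other peaks, and only 3 peaks, at 0 bp, were shorter. At 71 bp cpHsc70-1 was longer than 375 peaks and shorter than 63. SECA2 had the most reads among the 11 peaks of at most 2 bp, followed by AT2G07981 with 499. A class this short was picked after its values were seen, and it stood out in the p-value. Only 1 of the 11 had a p-value of exactly 0, 2 had one above 0 and up to 0.05, SECA2 being one of them, and 8 had one above 0.05. From 40 to 79 bp, the class of cpHsc70-1, the p-value was exactly 0 in 159 of 177 peaks (89.8%). In the other length classes that share ranged from 60% (3 to 9 bp) to 94.1% (20 to 39 bp). It was 64.6% in the longest class, 80 to 759 bp. These shares are descriptions of 1 list, and the part of length in the SECA2 values was not tested.

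The annotation columns described the gene surroundings unevenly. SECA2 had no gene in its 5′ column and AT1G21660 in its 3′ column, at 5934 bp. The columns are sparse: AT1G21660 was given as the 3′ gene of 20 peaks, at distances of up to 7414886 bp, and SECA2 had the nearest of these peaks. For cpHsc70-1 the columns gave AT4G16475 at 3303726 bp and AT4G28030 at 1344113 bp, each also listed for 11 other peaks. In the order of a RefSeq gene table, the nearest protein-coding loci are NADK2 (AT1G21640), which encodes the chloroplast NAD kinase, and AT1G21651 around SECA2, and AT4G24275 and AT4G24290 around cpHsc70-1. None of these 4 was named in an overlap column. The overlap text repeated the locus 3 times for SECA2, as in 226 of the 291 peaks on protein-coding genes, and 2 times for cpHsc70-1, as in 8 of the 291. The kind of feature behind each mention is not stated, so exon, intron, untranslated region and strand cannot be given for either peak.

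The peaks next along the chromosome were closer to cpHsc70-1 than to SECA2. The nearest peak to SECA2 was 162 kb away, on AT1G21245, with 279 reads, and 892 kb away on the other side lay a peak of 322 reads on the transposable element gene AT1G23990. The second peaks out were on AT1G19835, with 232 reads, and on MYB116, with 152 reads. On chromosome 4 the peaks next to cpHsc70-1 were 82.8 kb away, with 292 reads and no named gene, and 188 kb away on AT4G24790, with 324 reads. Beyond them lay AT4G23910, with 196 reads, and the RNA-binding protein gene ATRBP45C, with 292. SECA2 therefore had more reads than any of these 4 flanking peaks, and cpHsc70-1 fewer than any of its own 4. Within 500 kb there was 1 other peak around SECA2 and 3 around cpHsc70-1, where the median gap between adjacent peaks was 235 kb on chromosome 1 and 199 kb on chromosome 4. On the nearer side the gap was below the median for both genes, and for cpHsc70-1 below the lower quartile of 91.5 kb. The smaller of a peak's flanking gaps tends to fall below the median of all gaps, so nothing is read from this. On the other side, the SECA2 gap of 892 kb was above the upper quartile of 389 kb, and the cpHsc70-1 gap of 188 kb was below the median.

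**Figure D4:**
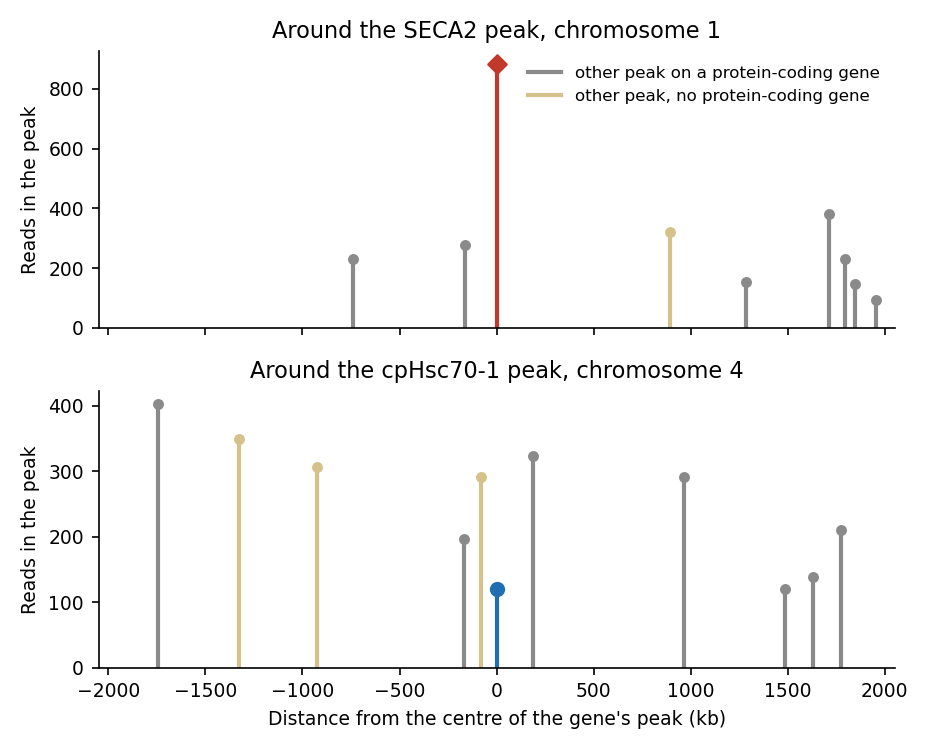
Reads per peak (y axis) against distance from the centre of the SECA2 peak (above) and of the cpHsc70-1 peak (below), in kb (x axis), for all peaks within 2000 kb. SECA2 rises to 883 reads over the 8 other peaks in its window, and cpHsc70-1, at 121 reads, is among the lowest in its own window of 10 other peaks.

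The other listed genes of the chloroplast transport and folding machinery were not named in the overlap column. Of 56 nuclear genes listed for it, SECA2 and cpHsc70-1 were the 2 overlapped (3.57%, exact 95% interval 0.435 to 12.3), beside 1.05% of the 27444 nuclear protein-coding genes. As these genes were chosen for having a peak, nothing is read from that share. In peaks with an FDR under 1%, SECA2 alone of the 56 was named, beside 0.492% of all genes, and in peaks with a p-value of at most 0.05 both were named, beside 1.02%. By role, 1 of 13 genes of the Sec, signal recognition particle and Tat pathways was overlapped, namely SECA2. Its channel partner SCY2 was not, nor were the thylakoid pair SECA1 and SCY1. None of 21 TOC and TIC genes was overlapped (upper exact 95% limit 16.1%), among them the receptor TOC159, the channel TOC75-III and the inner envelope protein TIC110. Of 18 chloroplast chaperone genes 1 was overlapped, cpHsc70-1, while the import motor genes CLPC1 and CLPC2, the Hsp90 gene HSP90.5 and the chaperonin genes were not. None of 4 peptidase genes that trim imported proteins and none of 16 Hsp70 genes of other compartments was overlapped. At the share of 1.05% over all nuclear protein-coding genes, lists as short as these would mostly hold none, so nothing is read from these absences. Overlap counts only the gene a peak touches, so absence of binding near the other 54 genes was not shown.

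A further 2 of the 56 genes stood beside a peak in the neighbour columns, and one of them is the paralogue of cpHsc70-1. cpHsc70-2 (AT5G49910), the other stromal Hsp70 gene, lay 207 bp from a peak on AT5G49920, the next locus, at chromosome 5, 20306676 to 20306742. That peak held 382 reads, 200 forward and 182 reverse, rank 44 of 439, and its FDR was 0.429%, with 2.23e-06 as p-value. The list spells the gene's name in a corrupted form, which was read as cpHsc70-2 from the symbol inside it and from the adjoining locus. AT5G28750, listed here with the thylakoid transport genes, lay 445 bp from a peak on AT5G28740 at chromosome 5, 10783481 to 10783537, which held 46 forward and 104 reverse reads, 150 together. Its FDR was 4.29% and its p-value 0. Forward reads were 30.7% of the peak beside AT5G28750 (Wilson 95% interval 23.8 to 38.5), a value within the interval of SECA2, and 52.4% of the peak beside cpHsc70-2 (47.3 to 57.3). By the overlap and neighbour columns, 4 of the 56 genes (7.14%) were named on a peak or within 1000 bp of one. The share of all nuclear protein-coding genes was 1.17%. Within 3000 bp the count was again 4, beside 1.33% of all genes. The neighbour columns are sparse and for cpHsc70-1 skipped the adjacent genes, so genes near a peak can be missing from all these counts. The 2 that chose the topic are among the 4, and each of the 2 neighbouring peaks overlapped another gene, so the count is a description.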

How the data were processed

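Anti-HA chromatin immunoprecipitation libraries were made from 35S:ATAF1-HA and wild-type Col-0 rosettes, 1 per genotype, per the labels' protocols. The authors deposited 1 peak list, on TAIR 9 per the submitters' processing notes. The sources used here do not give the aligner, the peak caller or any use of the wild-type library. The deposited reads of each peak are a count, total and by strand, FDR is a percent, and a p-value and a length stand beside them, per the file headers. The authors' strand imbalance is a fraction that in 438 of 439 peaks equalled the absolute strand difference over the sum within 1e-06. Reads are not corrected for depth or length.

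Continuation lines of annotation (177) were joined. Overlapped names were looked up within the chromosome of the peak, as locus or symbol, in a RefSeq gene table (GCF_000001735.4, TAIR10.1), used for names and gene order only. Of 354 loci named, 352 matched. All 72 listed genes matched, 16 of them for Hsp70 proteins of other compartments, and 2 names in the neighbour columns were resolved by hand. The members and lists were chosen with earlier results of these data known. The genes described were those of the peaks on SECA2 and cpHsc70-1, of adjacent peaks and of peaks with like reads, and listed genes within 3000 bp of a peak. No genome sequence was used here, so no sequence is shown. Alternatives used reads per bp, other peak thresholds and neighbour distances. Tools were SciPy 1.17.1, NumPy 2.4.6 and Matplotlib 3.10.9 under Python 3.11.15.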

Additional observations from a re-analysis of the deposited data

How the results depend on the processing

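The ratio of SECA2 to cpHsc70-1 reads was 7.30 and became 518 per bp of peak length, since the SECA2 peak is 1 bp long. Per bp, SECA2 ranked 1 of the 436 peaks with a length above 0, and cpHsc70-1 ranked 397. Peaks of 0 to 2 bp had a median of 267 reads and those of 80 to 759 bp 194.5, so a rank per bp depends largely on length. Of the list of 56, 2 genes were overlapped, beside 1.05% of all nuclear protein-coding genes. The count became 1, SECA2, among peaks with an FDR under 1%, beside 0.492% of all genes. With the neighbour columns it was 4 within 1000 bp, beside 1.17%, and 4 within 3000 bp, beside 1.33%. There cpHsc70-2 and AT5G28750 join. It stayed at 2 among peaks with a p-value of at most 0.05, beside 1.02%. SECA2 and cpHsc70-1 were chosen for having a peak, so nothing is read from these counts. The forward shares were the same from the deposited strand imbalance. For both peaks that imbalance comes from the same strand counts, so this outcome was fixed in advance and is no check. An exact binomial test of the SECA2 reads against the cpHsc70-1 share gave a two-sided p of 4.83e-62, but it uses the same shares and takes that of cpHsc70-1, from 121 reads, as free of error, so it is no check of the strand difference. No paired analysis was possible because there was 1 library per genotype. Depth per library is unknown, and intervals cover counting error only, with reads taken as independent.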
